A study of Mus musculus with 8 samples.

Results

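The genes described here are 37 genes of glycolysis and of the hypoxia-inducible factor (HIF) pathway, measured by RNA-seq in MC3T3-E1 cells. They were chosen by function: glucose and lactate transporters, the enzymes from hexokinase to lactate dehydrogenase, the regulatory PFKFB and PDK kinases, the HIF subunits with the proteins that mark them for degradation, and a few HIF targets outside glycolysis. All 37 had a row, of 20950 symbols in all, and 36 had an adjusted p; Slc16a3, with a mean of 0.389 normalized counts, did not. MC3T3-E1 subclone 14 is 1 clone of an osteoblastic cell line from mouse calvaria. The cultures received 10 µM Yoda1, a compound that opens the calcium-permeable, force-gated channel PIEZO1, dissolved in DMSO, or DMSO alone, both for 24 h, and the labels name no genetic change in either group. Of 4 samples per group, the labels leave out DMSO replicate 3 and Yoda1 replicate 1 for batch variation, so 3 per group remained. The values are the authors' own comparison, with 1 mean, 1 log2 ratio (the log2 fold change of Yoda1 over DMSO) and 1 standard error (SE) per gene, so the levels of single libraries cannot be shown.

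Glycolysis splits glucose into pyruvate in the cytosol, and lactate dehydrogenase turns pyruvate into lactate, which leaves the cell through monocarboxylate transporters. HIF is a transcription factor of an alpha subunit (HIF1A or EPAS1) and the partner ARNT; with oxygen, the EGLN prolyl hydroxylases mark the alpha subunit and the VHL protein has it degraded, so HIF activity is set largely at the protein level, which RNA-seq does not measure. Many glycolytic enzyme genes are known HIF targets, and osteoblasts are known for a high rate of glycolysis.

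Deposited means summed to 19849773 normalized counts over 20972 rows; the depth of each library was not analysed here. Osteoblast markers chosen by function were present, with means of 171434 for Col1a1, 2102 for Runx2 and 2405 for Sp7, but low for Alpl (47.3) and Bglap (4.70) in the authors' deposited table. These means cover both groups. Of these 9 markers, 7 were lower and 1, Spp1, was higher with Yoda1, against 22.1% and 22.4% of all tested genes. In the authors' deposited table, the mean and fold change implied 93.1 normalized counts of Alpl in DMSO and 1.54 in Yoda1. The implied levels in DMSO and Yoda1 were 251036 and 91831 for Col1a1, and 36401 and 270684 for Spp1. Defining markers of endothelial cells, leukocytes, adipocytes and myoblasts were near 0 or had no row (Pecam1 3.82, Ptprc 0.157, Pparg 3.52 in the authors' deposited table; Adipoq and Myod1 had no row). The exceptions were Cebpa (142.8), Des (26.0), Csf1r (13.8) and Cd14 (568.8), of which Cd14 passed the threshold, with a log2 ratio of 2.73 (SE 0.14). The part of such changes in the results below was not tested. In bulk cultures, fewer cells of a kind and less RNA per cell cannot be told apart.

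Most steps of glycolysis from phosphofructokinase onward had higher transcript levels with Yoda1, together with the glucose importer Slc2a1 and the lactate exporter Slc16a1. The transcripts of Gapdh, of the PFKFB kinases and of the HIF subunits Hif1a and Arnt were lower. At an adjusted DESeq2 p under 0.05 in the authors' deposited table, 14 of the 36 tested members were higher with Yoda1 and 9 were lower, and 13 did not pass. Among all 14653 tested genes, 22.4% were higher, 22.1% were lower and 44.5% passed in either direction, against 38.9%, 25.0% and 63.9% of the members. Abundant genes pass more often in these data: of tested genes with a mean of at least 1000, 28.8% were higher and 36.3% lower, while of the 21 members at that level 12 were higher and 4 lower. The median log2 ratio was 0.15 over the tested members and -0.01 over all tested genes.

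With the ratios centred to equal summed counts in both groups, which subtracts -0.11 on the log2 scale from every gene, 17 members were higher and 5 lower, and the split of all tested genes moved the same way, to 28.2% higher and 17.1% lower. With a t distribution (4 degrees of freedom) instead of the normal one, 8 members were higher (Slc2a1, Slc16a1, Pfkl, Aldoa, Tpi1, Pgk1, Ldha and Bnip3) and 4 lower (Gapdh, Hif1a, Arnt and Ndrg1), against 10.4% and 10.0% of all tested genes. The authors' UP and DOWN classes, which need a log2 ratio beyond 0.5 in size besides, held 9 members as higher and 4 as lower, against 13.8% and 13.3% of all tested genes.

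**Figure D1:**
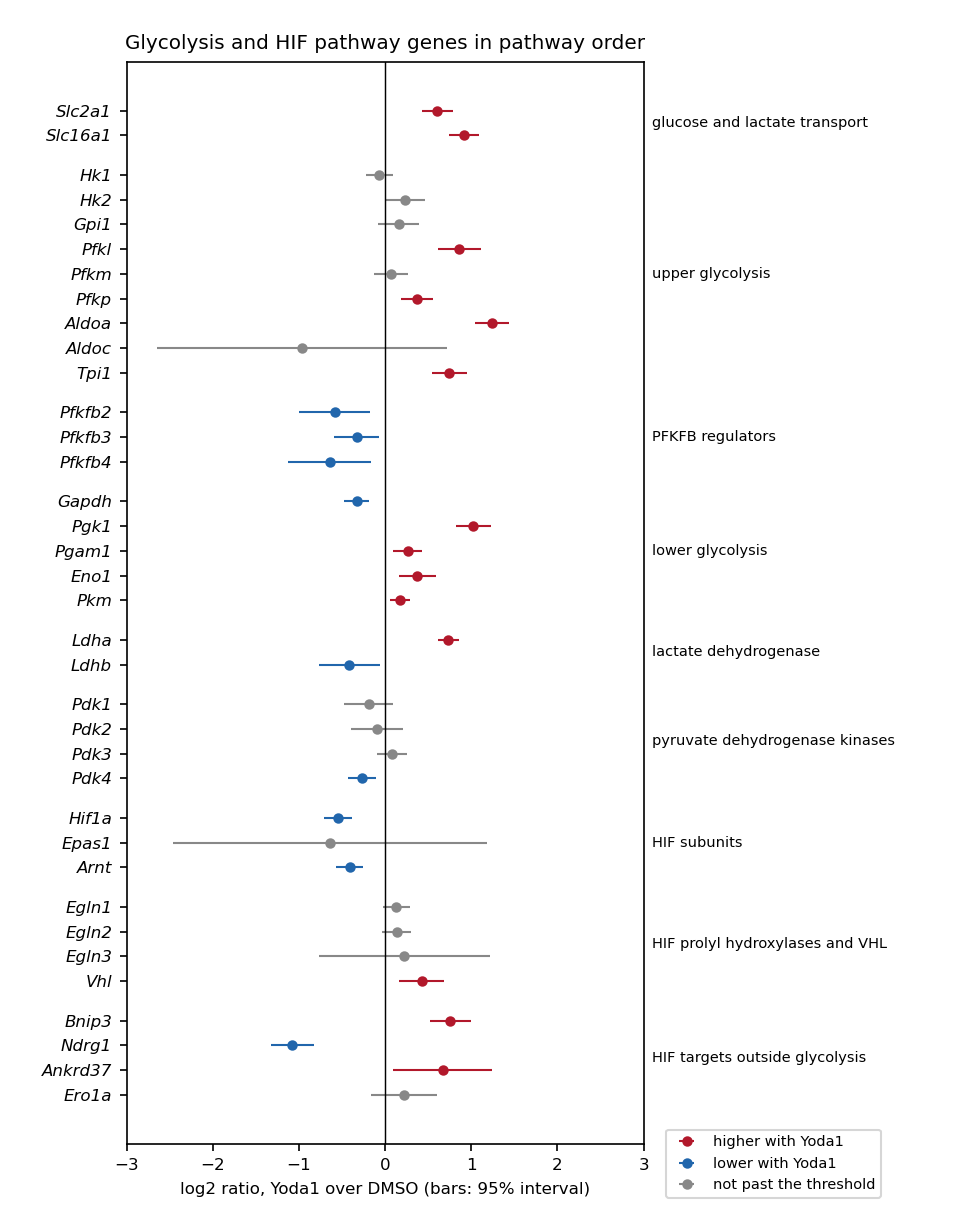
Log2 ratio of each tested member, Yoda1 over DMSO, in pathway order, with 95% intervals from the deposited SEs and colours for the call at an adjusted p under 0.05. The points for Aldoa (1.24) and Pgk1 (1.02) lie farthest right, Ndrg1 (-1.08) farthest left, and the 3 PFKFB genes and the 3 HIF subunits all lie left of 0, of which Epas1 did not pass.

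**Figure D2:**
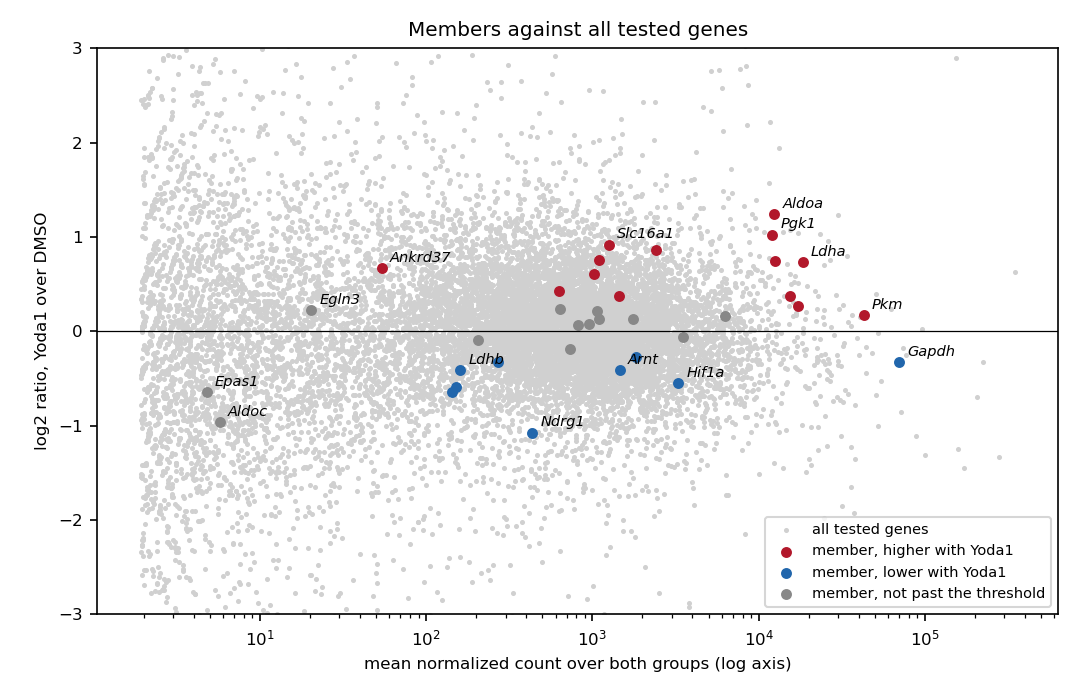
Log2 ratio against the mean normalized count (log axis) for all tested genes (grey dots) and the members (coloured by call); 262 tested genes lie beyond the axis limits of 3. Members at the right sit among the most abundant genes, with Aldoa, Pgk1 and Ldha above 0 and Gapdh below 0, and Aldoc and Epas1 sit at means where the dots scatter widely.

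Transporter transcripts at both ends of the pathway, Slc2a1 and Slc16a1, rose. Slc2a1 encodes GLUT1, the main glucose importer of many cell types. The authors' deposited table gave Slc2a1 a mean of 1020 normalized counts, which with its fold change implies levels of 808.3 in DMSO and 1231 in Yoda1, a 1.52-fold rise (95% interval 1.34 to 1.73, adjusted DESeq2 p = 7.91e-10). Slc16a1 encodes MCT1, which carries lactate and pyruvate with a proton. Its implied levels from the authors' deposited table were 868.5 in DMSO and 1640 in Yoda1, a 1.89-fold rise (1.67 to 2.13, adjusted p = 7.29e-23). The HIF-responsive lactate exporter gene Slc16a3 (MCT4) was near 0. The interval of its difference from Slc16a1 (-9.08 to 6.71 on the log2 scale) was too wide to be read. The 2 levels per gene are implied by the deposited mean and fold change for groups of equal size and carry no spread of their own.

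The genes of the first steps did not pass the threshold, although Hk2 passed with equal summed counts (adjusted p = 0.0118). Hexokinase traps glucose in the cell as glucose 6-phosphate. The ubiquitous isozyme gene Hk1 stood at a log2 ratio of -0.07 (SE 0.08, adjusted DESeq2 p = 0.540; 0.039 on the log2 scale with equal summed counts), and the inducible Hk2 at 0.23 (0.12, adjusted p = 0.102) by the authors' deposited table. Per kilobase of transcript, Hk1 made up 87.2% of the summed level of both genes in DMSO and 84.7% in Yoda1, and the summed level had a ratio of 0.983 (0.894 to 1.08). The difference of the Hk1 and Hk2 log2 ratios was -0.30 (95% interval -0.58 to -0.02). Gpi1, the isomerase that makes fructose 6-phosphate, stood at 0.16 (0.12, adjusted p = 0.306) by the authors' deposited table.

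Transcripts for phosphofructokinase, the main control point of glycolysis, rose through 2 of its 3 isozyme genes. The Pfkp call was lost with a t distribution. The liver-type gene Pfkl went from an implied 1719 to 3128 normalized counts in the authors' deposited table, 1.82-fold higher (1.53 to 2.16, adjusted DESeq2 p = 5.36e-11). The platelet-type gene Pfkp rose 1.29-fold (1.14 to 1.47, adjusted p = 0.000316), and the muscle-type gene Pfkm stood at a log2 ratio of 0.07 (0.10, adjusted p = 0.629) by the authors' deposited table. The isozymes parted: Pfkl exceeded Pfkm by 0.79 (0.48 to 1.11) and Pfkp by 0.49 (0.19 to 0.80) on the log2 ratio scale. The share of Pfkl in the summed level per kilobase went from 41.3% to 51.9%, and the summed level rose 1.45-fold (1.32 to 1.59).

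Transcripts for the kinases that tune phosphofructokinase went the other way. PFKFB enzymes make and break fructose 2,6-bisphosphate, its activator. All 3 PFKFB members were lower, against 22.1% of all tested genes. In the authors' deposited table, Pfkfb2 fell 1.50-fold (1.13 to 2.00, adjusted DESeq2 p = 0.0139), Pfkfb3 1.26-fold (1.05 to 1.51, adjusted p = 0.0331) and Pfkfb4 1.56-fold (1.12 to 2.18, adjusted p = 0.0219). Their means were low, at 151.4, 270.9 and 142.2 normalized counts. None of these 3 calls held with a t distribution, and those of Pfkfb3 and Pfkfb4 were also lost with equal summed counts. Pfkfb3 and Pfkfb4 both belong to the HIF-responsive genes.

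Transcripts for aldolase and triose phosphate isomerase, the enzymes that make and interconvert the triose phosphates, rose. Aldoa, the ubiquitous aldolase gene, had the largest fold rise of the 36 tested members, with implied levels of 7371 in DMSO and 17427 in Yoda1 in the authors' deposited table, a 2.36-fold rise (2.06 to 2.71, adjusted DESeq2 p = 1.01e-32). The brain-type gene Aldoc averaged just 5.73 normalized counts in the authors' deposited table, too few to show a difference (ratio 0.512, interval 0.159 to 1.65). Tpi1 rose 1.67-fold (1.45 to 1.93, adjusted p = 1.02e-11) by the authors' deposited table, from an implied 9329 to 15610.

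The member genes of the payoff steps from glyceraldehyde phosphate to pyruvate all passed the threshold, 4 higher and 1 lower. Their lowest mean was 12063 normalized counts, and abundant genes pass more often. Of tested genes with a mean of at least 1000, 28.8% were higher and 36.3% lower. Gapdh, the dehydrogenase that makes NADH in this pathway and a common reference gene, fell 1.26-fold (1.14 to 1.39, adjusted DESeq2 p = 2.30e-05) in the authors' deposited table, from an implied 78169 to 62135 normalized counts. Pgk1, the kinase of the very next step and the first to yield ATP, rose 2.03-fold (1.77 to 2.34, adjusted p = 1.06e-21) by the authors' deposited table, from 7956 to 16170. The ratio of Pgk1 to Gapdh was thus 2.56-fold higher with Yoda1 (2.15 to 3.03), a contrast chosen after the values were seen. Eno1 (enolase) rose 1.30-fold (1.12 to 1.50, adjusted p = 0.00190), Pgam1 (phosphoglycerate mutase) 1.20-fold (1.07 to 1.35, adjusted p = 0.00699) and Pkm (pyruvate kinase) 1.13-fold (1.04 to 1.22, adjusted p = 0.00871) by the authors' deposited table. Those last 3 calls were lost with a t distribution. The gene-level table does not separate the PKM1 and PKM2 splice forms of Pkm.

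Per kilobase, Gapdh was the most abundant of the 36 members with a length, at a mean of 55107 normalized counts, followed by Pkm at 19121, Ldha at 11567 (counts per kilobase in each case) and Tpi1 at 10352. Hk1 stood at 942 and the PFK genes between 292 (Pfkm) and 650 (Pfkl) on that scale. Lengths are medians over protein-coding GENCODE M21 transcripts, so small differences in level between genes are approximate. With the longest transcript instead, Tpi1 stood at 7759, below Pgam1 at 9717 and Aldoa at 8005. Genes such as Gapdh have many near-identical pseudogene copies, and how the authors' counting shared reads among them is not given in the sources used here. The 5 rows named as Gapdh or Gpi1 copies had a highest mean of 4.08 normalized counts. Copies under other names, and copies of the other members, were not searched, so this low value does not cover them. Eno1 had a second row, with a mean of 0.693 and no adjusted p, and the abundant row was used.

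**Figure D3:**
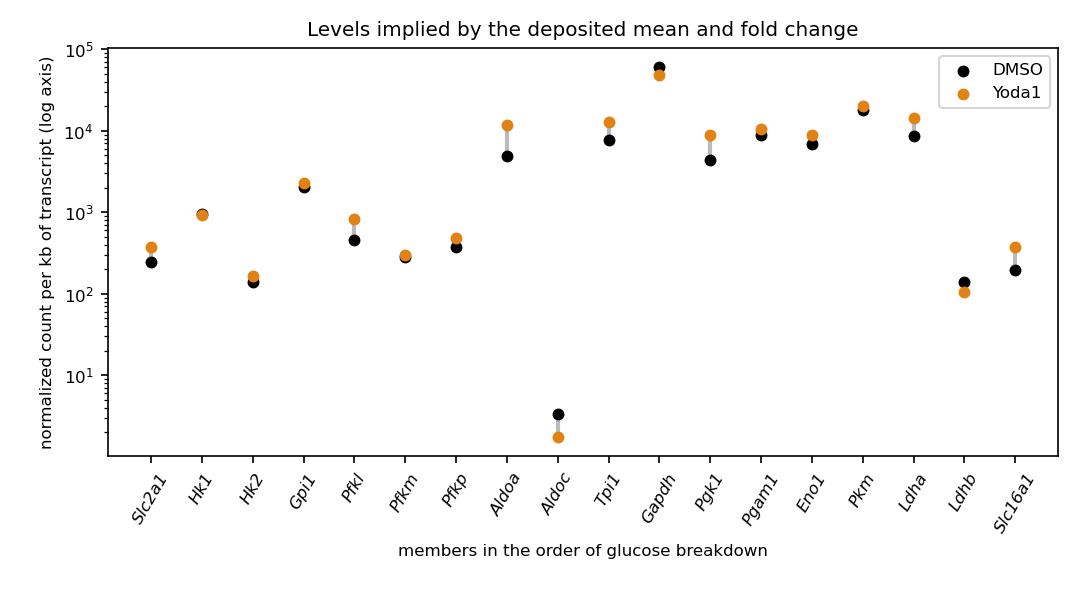
Normalized counts per kilobase of transcript (log axis) in DMSO (black) and Yoda1 (orange), as implied by the deposited mean and fold change, for tested transporters and enzymes in pathway order (Slc16a3, not tested, is not drawn); no error is drawn because single libraries are not shown. Among these, the widest gaps with Yoda1 above DMSO are at Aldoa and Pgk1, and Gapdh, at the top of the scale, has DMSO above Yoda1.

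Lactate dehydrogenase genes parted. Ldha encodes the subunit that favours lactate formation; it rose 1.66-fold (1.53 to 1.81, adjusted DESeq2 p = 6.28e-31) in the authors' deposited table, from an implied 13796 to 22943. Ldhb, whose subunit favours the reverse reaction, had a log2 ratio of -0.41 (SE 0.18) in the authors' deposited table and passed only just (adjusted p = 0.0494; 0.0388 to 1 over the alternatives). The Ldhb call held in 1 of 8 alternatives and was lost, among others, with equal summed counts and with a t distribution. The log2 ratios of Ldha and Ldhb differed by 1.15 (0.77 to 1.52). Ldha held 98.4% of the summed level per kilobase in DMSO and 99.3% in Yoda1.

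The pyruvate dehydrogenase kinases, which switch off the entry of pyruvate into the mitochondrial citrate cycle, had no member past the threshold in the higher direction and 1 in the lower. The shares of all tested genes were 22.4% higher and 22.1% lower. Pdk1, a HIF target, stood at a log2 ratio of -0.19 (0.14, adjusted DESeq2 p = 0.300), with Pdk2 at -0.10 (0.15, adjusted p = 0.662) and Pdk3 at 0.08 (0.09, adjusted p = 0.508) by the authors' deposited table. With equal summed counts the log2 ratio of Pdk2 was 0.0099, and Pdk2 did not pass the threshold. Pdk4, the starvation-induced form, fell 1.21-fold (1.08 to 1.35, adjusted p = 0.00315) by the authors' deposited table; that call was lost with a t distribution and with equal summed counts. The intervals of the differences between Pdk1 and each of the other 3 all held 0. Of 14 isozyme or paralog pairs compared, 6 had an interval of the difference that left out 0. Some pairs share a gene, and some hold a gene near 0, such as Slc16a3 or Epas1, with very wide intervals. Of the 6, the pair Aldoa and Aldoc (2.21, interval 0.51 to 3.90) also rests on a gene near 0, Aldoc. The pairs among Pfkl, Pfkm and Pfkp, which share genes, are in the 6 as well. The share among other gene pairs was not computed, so the count describes these pairs only.

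Of the HIF subunits, Hif1a fell 1.46-fold (1.31 to 1.64, adjusted DESeq2 p = 3.91e-10) in the authors' deposited table, from an implied 3892 to 2658 normalized counts. Its partner gene Arnt fell 1.33-fold (1.19 to 1.48, adjusted p = 2.06e-06) by the authors' deposited table, from 1668 to 1256. Epas1, which encodes HIF-2 alpha, averaged 4.78 normalized counts in the authors' deposited table, too few to show a difference (ratio 0.640, interval 0.181 to 2.26).

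Of the 4 genes that limit HIF, 1 passed the threshold, against 44.5% of all tested genes. Vhl rose 1.34-fold (1.12 to 1.61, adjusted DESeq2 p = 0.00439) in the authors' deposited table, a call lost with a t distribution. The prolyl hydroxylase genes Egln1 and Egln2 stood at log2 ratios of 0.13 (0.08, adjusted p = 0.168) and 0.13 (0.08, adjusted p = 0.195) by the authors' deposited table, and passed with equal summed counts (0.00699 and 0.0119). Egln3, a hypoxia-inducible hydroxylase gene, had a mean of 20.3 normalized counts and a ratio of 1.17 (0.588 to 2.32) in the authors' deposited table.

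Of the 4 HIF targets outside glycolysis, 2 were higher, 1 was lower and 1 did not pass the threshold. Counted with the HIF subunits and the genes that limit HIF, 27.3% of 11 members were higher and 27.3% lower. Among all tested genes, the shares were 22.4% and 22.1%. Bnip3, a mitophagy receptor gene, rose 1.69-fold (1.43 to 1.99, adjusted DESeq2 p = 3.36e-09) in the authors' deposited table, from an implied 811.7 to 1372. Ndrg1, a stress-responsive gene that hypoxia also induces, had the largest fall of the members, 2.11-fold (1.78 to 2.50, adjusted p = 2.89e-16), from 587.5 to 278.5 in the authors' deposited table. Their log2 ratios differed by 1.83 (1.49 to 2.18), a contrast chosen after the values were seen. Ankrd37 rose 1.59-fold at a mean of 54.0 normalized counts (1.07 to 2.36, adjusted p = 0.0494; 0.0198 to 1 over the alternatives) by the authors' deposited table. The Ankrd37 call was lost with no filter on low means and with a t distribution. Ero1a, an oxidase of the endoplasmic reticulum, stood at 0.22 (0.19, adjusted p = 0.393) by the authors' deposited table.

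The members nearest the threshold were Pfkfb3, Ldhb and Ankrd37 just inside it and Hk2, Egln1 and Egln2 just outside.

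Promoter windows are shown for the adjacent steps Gapdh and Pgk1, which parted, for the lactate genes Ldha and Slc16a1, and for Bnip3. HIF is known to bind a core of ACGTG or GCGTG, which reads CACGT or CACGC on the other strand; matches in either orientation are in capitals. Each window covers 250 bases before to 50 after the RefSeq start site of build GRCm38.p6, an older build than the GRCm39 named in the submitters' processing notes, and reads 5′ to 3′ along the gene. The windows are Slc16a1 at chr3:104638414-104638713 (+), Gapdh at chr6:125165724-125166023 (-), Pgk1 at chrX:106186850-106187149 (+), Ldha at chr7:46845554-46845853 (+, the first of 2 listed) and Bnip3 at chr7:138909457-138909756 (-). The first transcribed bases of the window were found in a GENCODE M21 transcript of Gapdh, Pgk1 and Bnip3 but not of Ldha or Slc16a1.
Slc16a1: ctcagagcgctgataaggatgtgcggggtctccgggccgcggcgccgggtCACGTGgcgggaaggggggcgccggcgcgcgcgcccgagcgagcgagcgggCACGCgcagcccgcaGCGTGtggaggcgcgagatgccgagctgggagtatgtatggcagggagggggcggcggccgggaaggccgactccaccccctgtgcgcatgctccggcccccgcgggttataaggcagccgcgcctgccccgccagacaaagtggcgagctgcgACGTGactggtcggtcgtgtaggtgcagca
Gapdh: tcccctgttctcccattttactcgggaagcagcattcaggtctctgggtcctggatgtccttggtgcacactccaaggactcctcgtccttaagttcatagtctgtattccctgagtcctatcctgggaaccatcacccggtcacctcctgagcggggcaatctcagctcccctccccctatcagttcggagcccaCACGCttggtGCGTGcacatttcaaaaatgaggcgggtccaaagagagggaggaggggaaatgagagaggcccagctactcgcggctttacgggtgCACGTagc
Pgk1: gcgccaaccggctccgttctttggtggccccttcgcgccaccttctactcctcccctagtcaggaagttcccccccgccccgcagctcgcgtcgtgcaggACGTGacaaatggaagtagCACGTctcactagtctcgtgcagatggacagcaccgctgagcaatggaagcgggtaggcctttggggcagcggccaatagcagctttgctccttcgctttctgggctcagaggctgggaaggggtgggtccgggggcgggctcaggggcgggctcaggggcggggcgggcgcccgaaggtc
Ldha: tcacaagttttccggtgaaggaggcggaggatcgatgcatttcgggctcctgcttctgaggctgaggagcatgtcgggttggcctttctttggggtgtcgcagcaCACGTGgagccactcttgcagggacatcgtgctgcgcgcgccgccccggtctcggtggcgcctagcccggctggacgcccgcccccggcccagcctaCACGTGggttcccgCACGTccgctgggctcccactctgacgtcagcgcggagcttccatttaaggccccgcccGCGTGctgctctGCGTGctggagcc
Bnip3: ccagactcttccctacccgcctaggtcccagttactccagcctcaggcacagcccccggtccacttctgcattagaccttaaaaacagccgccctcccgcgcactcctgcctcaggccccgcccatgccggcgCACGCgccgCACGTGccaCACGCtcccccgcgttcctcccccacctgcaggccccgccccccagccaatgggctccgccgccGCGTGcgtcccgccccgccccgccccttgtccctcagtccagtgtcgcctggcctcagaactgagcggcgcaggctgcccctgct

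The Pgk1 window held 2 matches and the Gapdh window 3. There were 5 in the Slc16a1 window, 7 in that of Ldha and 5 in that of Bnip3, where each CACGTG counts in both orientations. Of the 35 members with a window, 32 held at least 1 match in any of their windows, against 67.0% of 10149 tested genes and 46.7% of all 27025 genes with windows of this length. By call, that was 12 of 14 members that were higher, 8 of 8 that were lower and 11 of 12 that did not pass; Slc16a3, not tested, also held 1 or more. A gene with more windows has more room for a match. Counted by window, 82.7% of 52 member windows held a match, against 60.9% of 12997 windows of tested genes. A match is not a binding site, and no binding was measured.

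Other genes of the same pathways, listed by function, moved in both directions. Their counts stand beside shares of 22.4% higher and 22.1% lower among all tested genes. Of 13 tested further glycolytic enzymes and isozymes, 6 were higher and 2 lower. The ADP-dependent glucokinase gene Adpgk had a log2 ratio of 0.64 (SE 0.08), the phosphoglucomutase genes Pgm1 0.55 (0.09) and Pgm2 -0.39 (0.10), the inositol phosphate phosphatase gene Minpp1 0.37 (0.11), and Pfkfb1 -0.74 (0.28) in the authors' deposited table. Of 12 further transporters and their partners, 2 were higher and 1 lower: the transporter gene Slc16a13 had a log2 ratio of 1.53 (0.30), and the MCT chaperone genes Emb and Bsg 0.41 (0.14) and -0.19 (0.07), in the authors' deposited table. Txnip, an inhibitor of glucose uptake, stood at 0.12 (0.06, adjusted p = 0.137) in that table.

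Of 38 tested HIF targets that are not members, 18 were higher and 6 lower, with a median log2 ratio of 0.34. Among all tested genes, 22.4% were higher and 22.1% lower, with a median of -0.01. Vegfa, the angiogenic growth factor gene, rose 2.93-fold (2.62 to 3.28, adjusted DESeq2 p = 9.65e-75) by the authors' deposited table. Ddit4 rose 2.91-fold, and Plod2, a collagen lysyl hydroxylase gene, fell 1.87-fold (1.67 to 2.11, adjusted p = 6.31e-24) by the authors' deposited table. Of 20 further HIF regulators, 5 were higher and 6 lower, not far from the shares of all tested genes. The VHL partners Elob and Eloc had log2 ratios of 0.94 (SE 0.13) and 0.67 (0.17), and Cited2, which competes with HIF for its coactivators, 0.64 (0.13), in the authors' deposited table. The deubiquitinase gene Usp20 stood at 1.32 (0.19) and the lectin gene Os9 at -0.57 (0.08) in the authors' deposited table. Hif3a passed in the authors' deposited table at a mean of just 5.05 normalized counts (adjusted p = 0.000366), too low for its fold change to be read as a size.

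**Figure D4:**
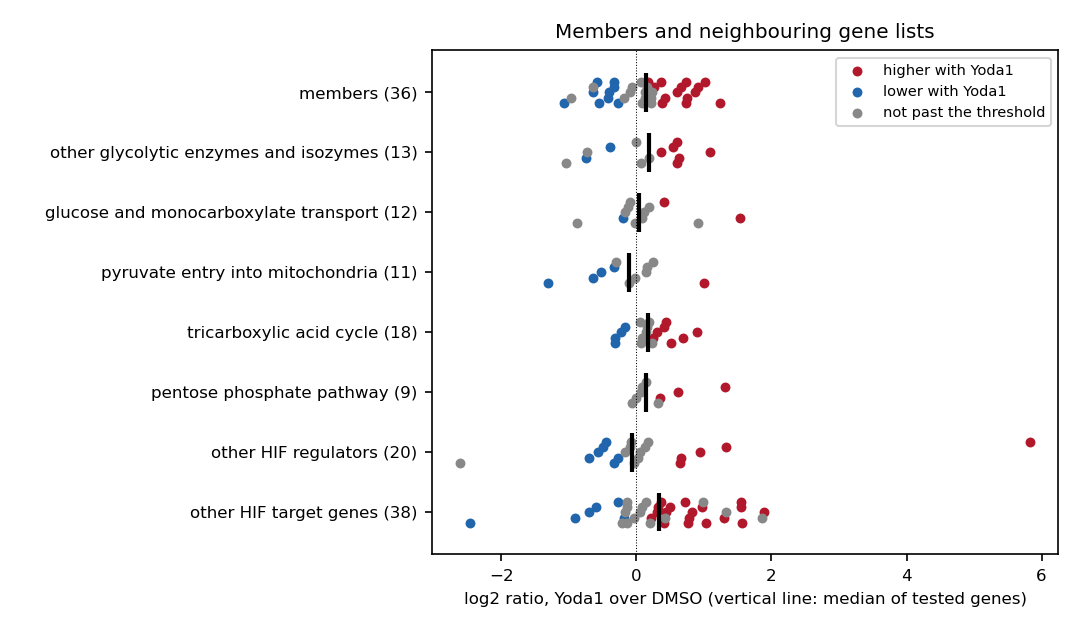
Log2 ratio, Yoda1 over DMSO, of the tested members (36) and of tested genes of 7 neighbouring lists, coloured by call, with the list's median as a black line and its number of tested genes in brackets. Each list spreads to both sides of 0; the medians run from -0.10 for pyruvate entry into mitochondria to 0.34 for the other HIF target genes, and the far right point is Hif3a.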

How the data were processed

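RNA-seq of MC3T3-E1 cultures was held as 1 deposited table of results per gene. Per the submitters' processing notes, Salmon and DESeq2 were used with build GRCm39; they give no versions. The normalized count is a signal, averaged by the authors over their libraries, per the file headers. The deposited log2 ratio and SE are the authors' unshrunken values; the direction, Yoda1 over DMSO, rests on the table's name. The deposited Wald score is their ratio, its p-value the normal tail and the adjusted p the Benjamini-Hochberg value over 14653 rows, checked with 0 exceptions beyond 1e-06. The model formula and any filter were not given in the sources used here. Nothing says that the replicates were separate cultures, so each p-value reflects spread among these samples alone, possibly technical.

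As no values per library were held, the authors' adjusted p under 0.05 was used in place of a count test. Intervals (95%), implied group levels, sums per kilobase and differences between genes, with errors treated as independent, were computed in Python 3.11.15 with scipy 1.17.1; the recalculations were tested on simulated data. Lengths matched 36 and promoters 35 of 37 members. Precision followed level: the median SE was 0.116 at means of 100 or more and 0.754 below. The sample labels were followed where the series' design text names other cells. The members, lists, pairs and rules were chosen with earlier results of these data known; every member is named, and of each further list up to 4 genes with the smallest adjusted p, with all in a direction that 5 or fewer passed. One gene that this rule names is not reported here.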

Additional observations from a re-analysis of the deposited data

How the results depend on the processing

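Without values per library, leaving out each replicate was not run. No paired analysis was possible because the deposited table holds no column of a single library. The 23 member calls were set against 8 alternatives. With no filter on low means the counts of higher and lower members were 13 and 8 (3138 and 3064 of all genes), with a mean of at least 100 they were 13 and 9 (3034 and 2888), and with trimmed-mean centring 14 and 8 (3398 and 3131). More genes were tested with no filter, and fewer with a mean of at least 100, than the 14653 of the other settings. The counts of all genes in these settings are therefore not shares of 1 total. At a mean of at least 100, 32 members were tested. Equal summed counts gave 17 and 5 (4138 and 2500 of all genes), with Hk1 at 0.039 and Pdk2 at 0.0099 on the log2 scale, both reversed in sign and neither past the threshold. A fold threshold of 0.5 left 9 and 4 members (2023 and 1954 of all genes), and a threshold of 1 left 2 and 1 (721 and 765). A t distribution of 4 degrees of freedom left 8 and 4 (1522 and 1468 of all genes), and a test for ratios beyond 0.5 on the log2 scale left 5 and 1 (702 and 691). These counts fell by construction, since each of these rules is stricter. Of the 23 calls, 12 held in all 5 alternatives without a fold threshold. Low means limit Aldoc, Epas1, Egln3 and Slc16a3.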

Other observations

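The routes beside glycolysis gave mixed counts. Among all tested genes, 22.4% were higher and 22.1% lower. At means of at least 1000, the shares were 28.8% and 36.3%. No list was tested against these shares. Of 9 tested pentose phosphate pathway genes, 3 were higher and 0 lower. Taldo1, the transaldolase gene, rose 2.49-fold (95% interval 2.19 to 2.82, adjusted DESeq2 p = 1.40e-43) in the authors' deposited table. The dehydrogenase genes Pgd and H6pd had log2 ratios of 0.61 (SE 0.10) and 0.36 (0.10) in the authors' deposited table, while Pgls, the lactonase gene, stood at 0.32 (0.15, adjusted p = 0.0584).

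Of 11 genes that bring pyruvate into mitochondria or its first reactions there, 1 was higher and 4 were lower. For all tested genes the shares were 22.4% higher and 22.1% lower, and 28.8% and 36.3% at means of at least 1000. Pcx, which encodes pyruvate carboxylase, fell 2.48-fold (2.13 to 2.88, adjusted DESeq2 p = 1.06e-29), and the pyruvate carrier genes Mpc1 and Mpc2 had log2 ratios of -0.65 (0.13) and -0.33 (0.10), in the authors' deposited table. Within the pyruvate dehydrogenase complex, Dlat rose 2.00-fold (1.74 to 2.29, adjusted p = 3.64e-22) and Pdhx stood lower at -0.53 (0.13) in the authors' deposited table. Of 18 citrate cycle genes, 7 were higher and 4 lower; the succinate dehydrogenase genes Sdhd (0.89, SE 0.14) and Sdhb (0.69, 0.11), with Idh3b (0.44, 0.07) and Mdh2 (0.51, 0.10), were higher on the log2 scale, and the lower genes Mdh1, Sucla2, Idh2 and Ogdh lay between -0.32 and -0.17 in the authors' deposited table.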
